A study of Mus musculus with 120 samples.

Results

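The hippocampus of 4 WT and 4 175Q mice was compared at 10 weeks of age. The libraries were chosen by region, genotype and age in their titles and are 8 of the 120 libraries of the series, which cover 5 brain regions, 3 genotypes and 2 ages. All mice were C57BL/6J, and each group held 2 females and 2 males. Per the design text, 175Q mice carry 1 Atxn1 allele with an expanded CAG repeat (Atxn1 175Q/2Q), whereas WT mice carry none. Each library came from 1 mouse, so replicates are separate animals. The hippocampus of 4 mice with the third genotype, 175QK772T, also entered the fit. Those libraries added to the estimate of the spread between mice and took part in the low-count filter, the scaling and the sex term. The tissue was taken whole, so fewer cells of a type and less RNA per cell cannot be told apart in any of the values that follow.

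Atxn1 encodes ataxin-1, a chromatin-associated protein that binds the transcriptional repressor Capicua. Its expanded glutamine tract causes spinocerebellar ataxia type 1, a disease best known for loss of cerebellar Purkinje cells, in which memory and other cognitive functions can also be affected. The hippocampus holds granule cells in the dentate gyrus and pyramidal cells in fields CA3, CA2 and CA1, which are linked in a chain of excitatory synapses, with local inhibitory interneurons in every layer. The adult forebrain normally keeps Hox genes and other factors of the embryonic body plan silent, in part through Polycomb complexes.

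Libraries held 74216136 to 101684969 counted read pairs, of which 4.77% to 5.19% fell on mitochondrial genes. Markers of the labelled tissue were present: every WT hippocampus library lay above every WT cortex library of the same age for 13 of 16 dentate granule cell markers, 9 of 14 CA1, 8 of 10 CA2 and 9 of 12 CA3 markers. Prox1, the granule cell transcription factor, was at 121.8 to 138.0 CPM (counts scaled to library size) in WT hippocampus and at 14.3 to 16.9 CPM in WT cortex. A pair of libraries stood apart. WT replicate 2 and 175Q replicate 2 held transthyretin (Ttr) at 3429 and 3058 CPM against 10.6 to 95.9 CPM in the other 6, and the summed level of 12 choroid plexus markers ran from 214 to 5500.2 CPM in WT and from 227 to 4849 CPM in 175Q. None of these 12 markers passed the edgeR test between genotypes or had an unadjusted p below 0.05, DESeq2 gave 11 of them no adjusted p, 11 were called when no low-count filter was applied, and each group held 1 such library.

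The knock-in gene was read first. Atxn1 (chromosome 13, 45549755 to 45965008, minus strand, GRCm38) was at 74.9, 76.1, 79.6 and 76.6 CPM in WT and at 97, 87.7, 87.7 and 99.3 CPM in 175Q. All 4 175Q libraries lay above all 4 WT libraries. Atxn1 was higher in 175Q by 0.27 ± 0.05 on the log2 scale (± standard error derived from the F statistic of the 12-library fit, n = 4 per group, edgeR quasi-likelihood test, Benjamini-Hochberg adjusted p = 0.00191). Counts per gene do not separate the expanded from the normal allele, so this value does not show the repeat itself. Throughout, the 4 values of a group are given in the order of replicates 1 to 4, CPM are scaled by TMM, and a gene of any fold counted as called once its adjusted p was under 0.05.

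Of 21071 genes tested, 4132 were called (19.6%), 2046 higher (9.71%) and 2086 lower (9.9%) in 175Q, beside 6639 at an unadjusted p below 0.05. These shares are the background for the counts of called list members that follow. The lists and their members were chosen with earlier results of these data known, so the counts are description and no test of a list. The values of the 2 groups did not overlap for 4752 genes (22.6%), and 3660 of the called genes (88.6%) were among them. Most changes were small: the median log2 fold change was 0.25 among genes called higher and -0.37 among those called lower, and 0.01 over all genes tested. Beyond 2-fold lay 170 rises and 246 falls, but beyond 4-fold 62 rises and 31 falls. Genes called lower had a median WT level of 9.58 RPKM (reads scaled to gene length and library size), against 5.22 RPKM for genes called higher and 2.66 RPKM for all genes tested. Without WT replicate 2 and 175Q replicate 2, 3349 genes were called, 1625 higher and 1724 lower.

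**Figure D1:**
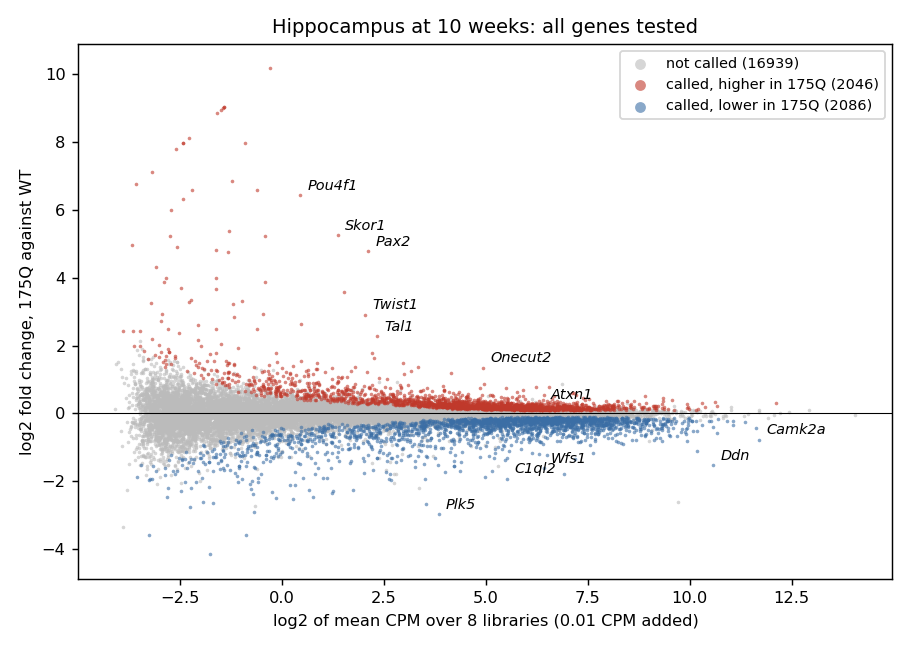
Each point is 1 of 21071 genes tested. The x axis gives the log2 of the mean CPM over 8 libraries (0.01 CPM added) and the y axis the log2 fold change of 175Q against WT. Red points are the 2046 genes called higher and blue points the 2086 called lower; the highest rises, Pou4f1 among them, sit at low abundance, whereas falls such as Ddn and Camk2a reach the abundant end.

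The sequences of 6 promoters are printed here because their genes carry the main results. Of these, 3 genes with a WT mean below 1 CPM rose (Pou4f1, Skor1, Twist1) and 3 neuronal genes fell (Plk5, C1ql2, Wfs1). Each runs 5′ to 3′ on the gene's own strand from 250 bases before to 50 bases after the start that RefSeq gives on GRCm38.p6, with CG dinucleotides in capitals.
Pou4f1, chr14:104467950-104468249, minus strand: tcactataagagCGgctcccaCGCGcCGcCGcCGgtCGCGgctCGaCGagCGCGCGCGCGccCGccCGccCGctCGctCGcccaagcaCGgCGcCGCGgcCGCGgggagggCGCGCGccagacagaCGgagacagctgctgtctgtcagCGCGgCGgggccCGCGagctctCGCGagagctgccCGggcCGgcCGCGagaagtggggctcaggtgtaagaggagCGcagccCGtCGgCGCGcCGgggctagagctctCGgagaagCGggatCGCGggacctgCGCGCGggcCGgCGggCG
Skor1, chr9:63148912-63149211, minus strand: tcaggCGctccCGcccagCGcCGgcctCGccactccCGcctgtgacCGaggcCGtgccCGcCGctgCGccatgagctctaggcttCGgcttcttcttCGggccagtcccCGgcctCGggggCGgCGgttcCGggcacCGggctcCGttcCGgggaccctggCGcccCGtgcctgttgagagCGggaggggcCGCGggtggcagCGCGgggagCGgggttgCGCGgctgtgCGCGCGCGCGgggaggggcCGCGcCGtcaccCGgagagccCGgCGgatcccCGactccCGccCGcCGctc
Twist1, chr12:33957421-33957720, plus strand: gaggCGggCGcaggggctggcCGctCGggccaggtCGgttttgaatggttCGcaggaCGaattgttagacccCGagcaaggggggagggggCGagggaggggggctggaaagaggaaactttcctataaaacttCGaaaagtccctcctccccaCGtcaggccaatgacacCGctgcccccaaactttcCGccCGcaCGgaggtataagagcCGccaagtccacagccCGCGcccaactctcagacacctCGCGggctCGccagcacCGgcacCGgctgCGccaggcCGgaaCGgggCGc
Plk5, chr10:80356209-80356508, plus strand: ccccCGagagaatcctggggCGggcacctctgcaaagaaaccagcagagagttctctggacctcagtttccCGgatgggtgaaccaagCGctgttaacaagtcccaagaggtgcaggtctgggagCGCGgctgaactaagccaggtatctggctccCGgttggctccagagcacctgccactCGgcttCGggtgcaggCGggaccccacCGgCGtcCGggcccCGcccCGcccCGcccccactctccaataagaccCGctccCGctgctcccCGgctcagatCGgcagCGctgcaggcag
C1ql2, chr1:120340332-120340631, plus strand: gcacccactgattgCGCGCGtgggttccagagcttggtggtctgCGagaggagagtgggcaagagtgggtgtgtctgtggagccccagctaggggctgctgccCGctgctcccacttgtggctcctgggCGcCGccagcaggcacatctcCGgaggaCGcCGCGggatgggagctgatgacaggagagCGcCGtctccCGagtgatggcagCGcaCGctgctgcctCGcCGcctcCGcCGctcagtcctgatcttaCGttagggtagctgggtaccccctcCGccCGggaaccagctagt
Wfs1, chr5:36988933-36989232, minus strand: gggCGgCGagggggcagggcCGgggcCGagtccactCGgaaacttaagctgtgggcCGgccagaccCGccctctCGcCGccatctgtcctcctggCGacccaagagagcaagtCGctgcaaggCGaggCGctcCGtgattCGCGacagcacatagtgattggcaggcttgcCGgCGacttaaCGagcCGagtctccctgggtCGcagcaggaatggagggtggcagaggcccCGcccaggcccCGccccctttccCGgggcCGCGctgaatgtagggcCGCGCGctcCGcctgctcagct
The Pou4f1 window holds 57 CG dinucleotides, a number that 0.159% of all 27025 promoter windows reach, and the Skor1 window holds 46, which 1.59% reach. The windows of Wfs1, Twist1, C1ql2 and Plk5 hold 30, 27, 23 and 21, all above the median of 7 over all windows. These CG-rich windows belong to genes of both directions. None of the 6 windows holds, on either strand, the cyclic AMP response element TGACGTCA, found in 1.85% of all windows, or the Capicua motifs TGAATGAA and TGAATGGA, of which at least 1 is found in 2.47%.

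Dentate granule cell markers fell almost as a whole list. Of 16 markers, 15 were called lower and none higher, with a median log2 fold change of -0.72. The exception was Tdo2, an enzyme of tryptophan breakdown, at a mean of 7.40 CPM in WT and 6.03 CPM in 175Q (adjusted p = 0.17). With WT replicate 2 and 175Q replicate 2 left out, 14 of the 16 were called lower.

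Plk5, a polo-like kinase expressed in brain, had the largest fall of all genes above a mean of 1 CPM. It was at 24.6, 22, 28.2 and 27 CPM in WT and at 3.51, 3.74, 3.22 and 2.66 CPM in 175Q. The groups lay far apart, and Plk5 fell by 2.96 ± 0.13 on the log2 scale (edgeR adjusted p = 1.02e-07). C1ql2, a secreted C1q-like protein of mossy fibre synapses, was at 75.5, 65.7, 71 and 77.2 CPM in WT and at 17.9, 16.3, 19.5 and 23 CPM in 175Q. All 4 175Q libraries lay far below all 4 WT libraries, with a log2 fold change of -1.92 ± 0.10 (adjusted p = 2.15e-07). Lct, lactase, whose transcript marks granule cells in the mouse hippocampus, was at 54.3, 44.5, 51.5 and 48.6 CPM in WT and at 12.6, 11.8, 12.1 and 17.8 CPM in 175Q. The highest 175Q value, in replicate 4, was still well below the lowest WT value, and the log2 fold change was -1.88 ± 0.15 (adjusted p = 4.7e-06).

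Other granule cell markers followed with smaller falls. Desmoplakin (Dsp), a desmosome protein, was at 68.4, 60.6, 72.7 and 60.2 CPM in WT and at 24.3, 22, 25.8 and 34.6 CPM in 175Q. Its groups did not overlap, and it fell by 1.31 ± 0.16 on the log2 scale (adjusted p = 0.000134). Stxbp6, which binds SNARE proteins of vesicle fusion, was at 127, 117, 129 and 133 CPM in WT and at 58.3, 48.4, 52.8 and 57.2 CPM in 175Q. It was lower in every 175Q library by a similar margin, with a log2 fold change of -1.22 ± 0.06 (adjusted p = 2.25e-07). Trpc6, a cation channel, fell by 1.21 ± 0.11, the transcription factor Rfx3 by 0.82 ± 0.08 and the lipid kinase gene Dgkh by 0.75 ± 0.09 on the log2 scale (adjusted p = 1.21e-05, 1.84e-05 and 0.000117). Calbindin (Calb1), a calcium buffer, fell by 0.38 ± 0.08 (adjusted p = 0.00434). Prox1 was at -0.44 ± 0.12 (adjusted p = 0.0203) and did not pass without WT replicate 1 or 3 or without 175Q replicate 2 or 3, with adjusted p of 0.0636, 0.0554, 0.0611 and 0.0599.

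CA1 pyramidal markers fell in 12 of 14 cases and rose in none, with a median log2 fold change of -0.41. Values of 8 of the 14 did not overlap between groups, and with WT replicate 2 and 175Q replicate 2 left out 7 were called lower. Wfs1, wolframin of the endoplasmic reticulum membrane, was at 121, 117, 151 and 128 CPM in WT and at 35.5, 49.2, 46.2 and 38.1 CPM in 175Q. No 175Q library reached the WT range, and Wfs1 fell by 1.61 ± 0.11 on the log2 scale (adjusted p = 9.51e-07). Lefty1, a secreted antagonist of Nodal signalling, was at 9.36, 8.70, 10.3 and 7.38 CPM in WT and at 2.28, 2.67, 2.45 and 3.53 CPM in 175Q. It fell by 1.71 ± 0.15 with no overlap (adjusted p = 7.76e-06).
Gpr161, a ciliary receptor, fell by 0.85 ± 0.10, the potassium channel gene Kcnh7 by 0.64 ± 0.08 and the serotonin receptor gene Htr1a by 0.49 ± 0.05 on the log2 scale (adjusted p = 0.000107, 0.000204 and 5.62e-05). The mean WT level of Kcnh7 was 85.1 CPM in hippocampus and 228.4 CPM in cortex. Zdhhc2, a palmitoyltransferase gene, did not pass the test, with a log2 fold change of -0.06.

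Of 10 CA2 markers 6 were called lower and none higher, with a median log2 fold change of -0.49, and 9 had an unadjusted p below 0.05. Rgs14, a regulator of G protein signalling that restrains plasticity of CA2 synapses in mice, was at 119, 111, 109.8 and 104 CPM in WT and at 45.1, 46.4, 46.8 and 54.5 CPM in 175Q. The groups were separated by a wide gap, and Rgs14 fell by 1.20 ± 0.07 on the log2 scale (adjusted p = 4e-07). Amigo2, an adhesion protein, fell by 0.81 ± 0.11, and Necab2, a calcium-binding protein, by 0.55 ± 0.08 (adjusted p = 0.000204 and 0.000416). Avpr1b, the vasopressin receptor of CA2, had few reads: 34, 47, 42 and 49 counts in WT against 3, 11, 8 and 5 in 175Q, a ratio of 0.162 (95% interval 0.104 to 0.244, counting error only).

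Of 12 CA3 markers 7 were called lower and none higher, with a median of -0.53. Bok, a BCL2 family member, was at 70.2, 69.2, 55.7 and 60.9 CPM in WT and at 21.7, 27.2, 23.5 and 26.4 CPM in 175Q. It fell by 1.37 ± 0.09 on the log2 scale with no overlap (adjusted p = 7.57e-07). The cadherin gene Cdh24 was at 22.2, 23.5, 19.6 and 18.6 CPM in WT and at 6.47, 7.67, 7.26 and 8.13 CPM in 175Q. It fell by 1.51 ± 0.10 (adjusted p = 7.57e-07), again with no overlap. Protein kinase C delta (Prkcd), also listed as a thalamic marker, fell by 1.13 ± 0.10, and the neuropeptide Y receptor gene Npy2r by 0.80 ± 0.13 (adjusted p = 7.02e-06 and 0.000715). Grik4, Spock1 and Elavl2, likewise CA3 markers, did not pass the test and had log2 fold changes of -0.05, 0.10 and 0.01.

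**Figure D2:**
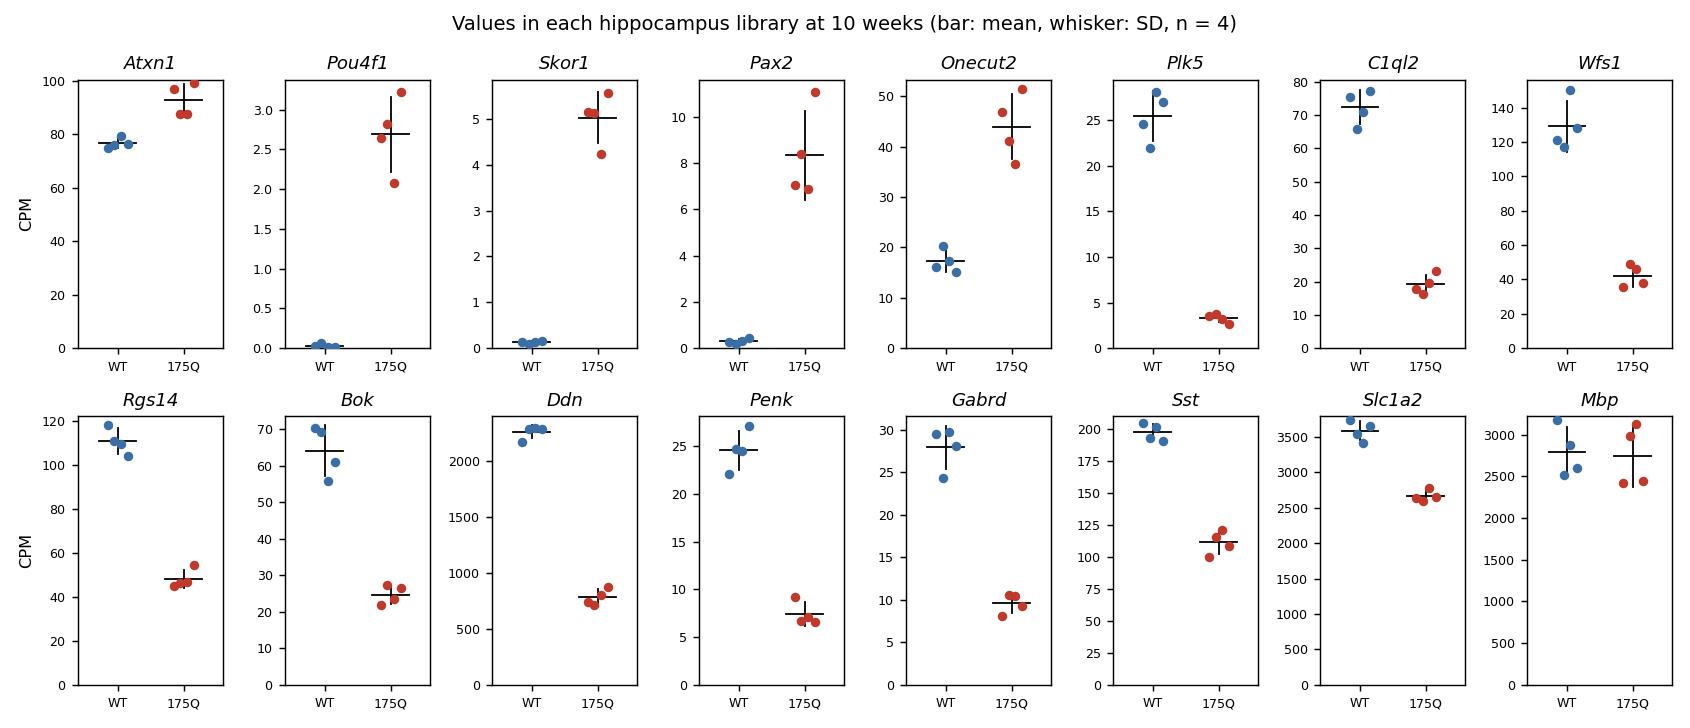
Each panel shows 1 gene in CPM on the y axis, with the 4 WT libraries in blue and the 4 175Q libraries in red; bars are means and whiskers SD (n = 4). Pou4f1, Skor1 and Pax2 lie near 0 in WT, whereas Plk5, C1ql2, Wfs1, Rgs14, Bok, Ddn, Penk and Gabrd show 2 separate clouds, and Mbp values overlap.

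Genes listed for pyramidal or granule neuron identity fell in most cases. Of 10 such genes 8 were called lower and 1 higher. The list is not separate from the others, since Prox1 is also a dentate marker above and Camk2a is described below. The bHLH factor Neurod6 was at 209.9, 228, 192 and 191 CPM in WT and at 109, 109, 116 and 138 CPM in 175Q. It fell by 0.80 ± 0.08 on the log2 scale (adjusted p = 1.57e-05). Markers of immature neurons did not fall with the mature ones: of 14, none was called lower, and Dcx, a microtubule protein of migrating neurons, and Neurog2, a proneural factor, rose by 0.37 and 1.30 (adjusted p = 0.00129 and 0.000253). The proliferation genes Mki67 and Top2a were at 2.71 and 2.46 CPM in WT and 2.30 and 1.89 CPM in 175Q and did not pass (adjusted p = 0.333 and 0.179). Of 10 mossy cell and subiculum markers, 2 were called lower and 1 higher, beside 9.9% lower and 9.71% higher of all genes. Calretinin (Calb2), a calcium buffer, fell by 0.55 ± 0.10 (adjusted p = 0.00186), and 1 of the 10 was called without WT replicate 2 or without 175Q replicate 1.

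Abundant postsynaptic genes were among the falls. Dendrin (Ddn), a dendritic and postsynaptic protein, was at 2174, 2290.3, 2292 and 2287 CPM in WT and at 745, 714, 807 and 871 CPM in 175Q. It had the smallest adjusted p of the genes named here, at 1e-08, and fell by 1.53 ± 0.05 on the log2 scale. Itpka, an inositol trisphosphate kinase of dendritic spines, was at 205, 206, 223 and 204 CPM in WT and at 72.7, 78.6, 86.3 and 95.3 CPM in 175Q. Its fall of 1.34 ± 0.06 (adjusted p = 1.02e-07) left no overlap. Homer3, a scaffold of metabotropic glutamate receptors, was at 56, 62.1, 44.9 and 46.7 CPM in WT and at 19, 22, 19.4 and 23.6 CPM in 175Q. It fell by 1.32 ± 0.11 (adjusted p = 6.49e-06).
Of 26 plasticity and synaptic scaffold genes 15 were called lower and none higher, with a median log2 fold change of -0.15. Dlg4, which encodes PSD-95, fell by 0.42 ± 0.04, Shank1 by 0.52 ± 0.05 and Shank3 by 0.48 ± 0.04 on the log2 scale (adjusted p = 1.2e-05, 1.6e-05 and 9.61e-06). The presynaptic scaffold Bassoon (Bsn) fell by 0.42 ± 0.05 (adjusted p = 9.57e-05), whereas Pclo, Syn1 and Stx1a did not pass, at -0.06, 0.05 and -0.05. Neuroligins 1 to 3 did not pass either.

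Calcium signalling genes showed 15 falls among 26 and no rise, with a median of -0.26. Camk2a, the kinase of synaptic potentiation, was at 4167, 4394, 4086 and 4165 CPM in WT and at 2318, 2347, 2385 and 2842 CPM in 175Q. The groups were separate, and it fell by 0.77 ± 0.06 on the log2 scale (adjusted p = 4.7e-06). Hippocalcin (Hpca), a neuronal calcium sensor, was at 1294, 1372, 1136 and 1149 CPM in WT and at 635, 680.3, 619 and 868 CPM in 175Q. It fell by 0.82 ± 0.11 (adjusted p = 0.000238). The calcineurin subunit gene Ppp3ca fell by 0.57 ± 0.07 and the ryanodine receptor gene Ryr1 by 0.68 ± 0.08 (adjusted p = 0.000173 and 6.38e-05). Camk2n2, an inhibitor of CaMKII, rose: it was at 54.4, 50.9, 49.8 and 63.7 CPM in WT and at 84.2, 104, 101 and 87.5 CPM in 175Q, with a log2 fold change of 0.79 ± 0.09 (adjusted p = 8.63e-05). Pnck, a relative of the CaM kinases, was at 65.1, 65.8, 67.2 and 79 CPM in WT and at 131, 106, 124 and 118 CPM in 175Q. It rose by 0.79 with no overlap between groups (adjusted p = 8.38e-06).

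Some receptor subunit genes fell and others did not pass. Of 18 ionotropic glutamate receptor subunits 10 were called lower and none higher. The NMDA receptor subunit gene Grin2a was at 407, 404, 375 and 363 CPM in WT and at 223, 184, 195 and 258 CPM in 175Q. It fell by 0.85 ± 0.09 on the log2 scale (adjusted p = 4.58e-05) without overlap. Grin1, the obligatory subunit, fell by 0.22 ± 0.05, and the AMPA receptor subunit genes Gria1 and Gria3 by 0.55 ± 0.08 and 0.27 ± 0.05 (adjusted p = 0.00658, 0.00036 and 0.002), whereas Gria4, Grin2d and Grin3a had log2 fold changes of -0.07, -0.02 and 0.07 and did not pass. Among 7 metabotropic receptors 4 were called lower, with Grm2, a presynaptic receptor, at 71.1, 54.7, 68.8 and 63.2 CPM in WT and at 28.9, 36.7, 41 and 29.2 CPM in 175Q. Its groups were separate, and its log2 fold change was -0.92 ± 0.11 (adjusted p = 7.43e-05).

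For GABA-A receptors, 5 of 12 subunit genes were called lower and none higher. Gabrd, the delta subunit of extrasynaptic receptors and abundant in granule cells, was at 29.5, 24.3, 29.7 and 28 CPM in WT and at 8.07, 10.6, 10.5 and 9.29 CPM in 175Q. All 175Q values lay below all WT values, and Gabrd fell by 1.54 ± 0.10 on the log2 scale (adjusted p = 1.22e-06). Gabra5, a subunit enriched in hippocampal pyramidal cells, was at 213, 229, 216 and 212 CPM in WT and at 122, 113, 124 and 146 CPM in 175Q. It fell by 0.79 ± 0.06 (adjusted p = 2.18e-06). Gabra2, Gabra3 and Gabrg3 did not pass and had log2 fold changes of 0.03, -0.04 and 0.06.

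Of 26 monoamine and acetylcholine receptor genes tested, 10 were called lower and 1 higher. Htr1b, a serotonin receptor gene, was at 8.87, 8.36, 10.4 and 8.76 CPM in WT and at 3.98, 3.56, 4.67 and 2.56 CPM in 175Q. It fell by 1.30 ± 0.17 on the log2 scale (adjusted p = 0.000205). Htr2a fell by 1.11 ± 0.16, the dopamine D5 receptor gene Drd5 by 0.95 ± 0.13 and the muscarinic M1 receptor gene Chrm1 by 0.54 ± 0.06 (adjusted p = 0.000344, 0.000238 and 7.35e-05). The rise was that of Chrnb2, the beta 2 subunit of nicotinic receptors, by 0.20 (adjusted p = 0.000543).

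Voltage-gated channel genes moved in both directions. Among 33 potassium channel genes 13 were called lower and 1 higher, among 12 sodium and HCN channel genes 4 lower and 1 higher, and among 21 calcium channel subunits 10 lower and 2 higher. Over all genes 9.9% were called lower and 9.71% higher. In the sodium and HCN list the 5 calls became 3 without WT replicate 1 or 3, or without 175Q replicate 1 or 3. The sodium channel beta subunit gene Scn4b was at 32.8, 22, 30.4 and 22.9 CPM in WT and at 6.68, 13.7, 11.3 and 8.95 CPM in 175Q. It fell by 1.41 ± 0.20 on the log2 scale (adjusted p = 0.000367). Kcnh3 and Kcnh4 fell by 0.89 ± 0.06 and 1.45 ± 0.15, and Kcnc1, a fast channel of interneurons, by 0.58 ± 0.04 (adjusted p = 1.82e-06, 3.71e-05 and 7.25e-07). Hcn3, a pacemaker channel gene, was at 13.4, 12.9, 13.8 and 13.8 CPM in WT and at 18.7, 19, 18.9 and 17.8 CPM in 175Q. It rose by 0.46 with no overlap (adjusted p = 0.000158), as did the T-type calcium channel gene Cacna1g by 0.30 (adjusted p = 0.00962), while its relative Cacna1h fell by 0.73 ± 0.07 (adjusted p = 2.22e-05). Scn9a, a sodium channel known from peripheral sensory neurons and outside this list, was at 3.71, 4.03, 4.28 and 4.46 CPM in WT and at 13.4, 9.38, 10.3 and 13 CPM in 175Q. It rose by 1.48 (adjusted p = 5.05e-06).

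**Figure D3:**
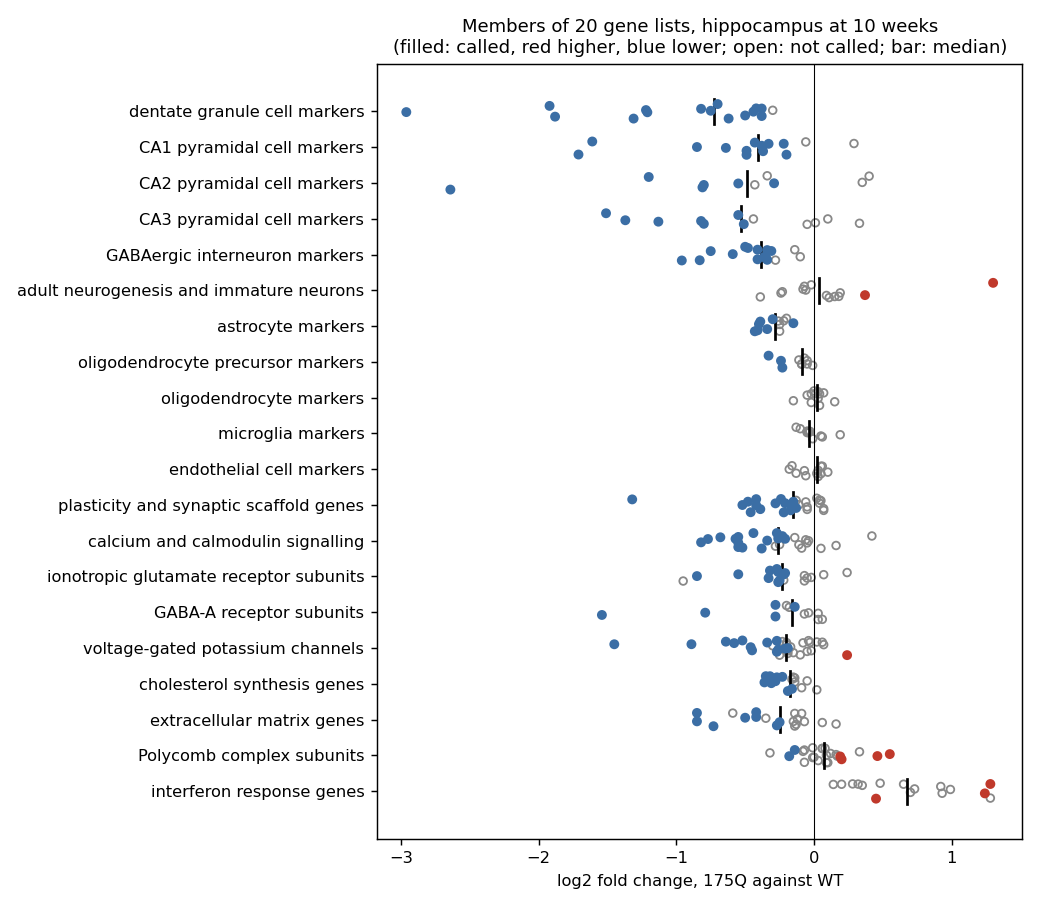
Each point is 1 member of 20 gene lists, with its log2 fold change of 175Q against WT on the x axis; filled points were called (red higher, blue lower), open points were not, and black bars are medians. Medians run lowest for dentate granule cell markers at -0.72 and lie at 0.02 for oligodendrocyte and endothelial markers.

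Interneuron genes and peptides fell as well. Of 16 GABAergic interneuron markers 13 were called lower and none higher, with a median log2 fold change of -0.38. Gad1, which makes GABA, was at 344, 318, 342 and 322 CPM in WT and at 248, 249, 251 and 246 CPM in 175Q. The 4 values within each group were close, and Gad1 fell by 0.41 ± 0.03 on the log2 scale (adjusted p = 4.78e-06). Somatostatin (Sst) was at 204, 193, 201 and 190.3 CPM in WT and at 99.9, 115, 121 and 108 CPM in 175Q. It fell by 0.83 ± 0.10 and Vip by 0.96 ± 0.14 (adjusted p = 7.16e-05 and 0.000441). The vesicular GABA transporter gene Slc32a1, found in the same cells, did not pass, with a log2 fold change of -0.14 ± 0.10 (adjusted p = 0.382), nor did parvalbumin (Pvalb) at -0.28 ± 0.10 (adjusted p = 0.0695).
Of 18 neuropeptides and neurotrophins 9 were called lower and 1 higher. Proenkephalin (Penk), an opioid peptide precursor, was at 22.1, 24.7, 24.5 and 27.1 CPM in WT and at 9.25, 6.67, 7.16 and 6.59 CPM in 175Q. No 175Q library reached 10 CPM, and Penk fell by 1.72 ± 0.14 on the log2 scale (adjusted p = 4.33e-06). Prodynorphin (Pdyn), an opioid precursor of mossy fibres, was at 15.5, 13.2, 15.9 and 12.6 CPM in WT and at 4.82, 4.48, 4.50 and 5.40 CPM in 175Q. It fell by 1.57 ± 0.11 (adjusted p = 1.07e-06). The neurotrophin gene Bdnf fell by 0.39 ± 0.08 (adjusted p = 0.00535), while Scg2, Vgf and Adcyap1 did not pass, at -0.08, -0.03 and 0.13. The rise, of neurotensin (Nts), was at 0.85 ± 0.25 with overlapping groups and adjusted p = 0.0291, and did not pass without WT replicate 1, 2 or 4 or without 175Q replicate 1 or 3 (adjusted p 0.0572 to 0.096).

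The immediate early gene calls varied with single libraries. Of 16, 3 were called lower and none higher. Over all genes 19.6% were called and 9.9% were called lower. Fosl2 and Egr3, activity-linked transcription factors, kept their calls without any 1 library. Fosl2 was at 54.7, 43, 52.3 and 53.2 CPM in WT and at 23.7, 28.4, 27.4 and 17.8 CPM in 175Q. It fell by 1.06 ± 0.13 on the log2 scale, and Egr3 by 0.56 ± 0.07 (adjusted p = 0.000125 and 0.000171). Arc, a spine protein induced by activity, was at 138, 87.1, 83.5 and 88.3 CPM in WT and at 40.3, 108, 47.3 and 35.5 CPM in 175Q. In 175Q replicate 2 it lay within the WT range. Its log2 fold change was -0.82 ± 0.26 (adjusted p = 0.0426), and it did not pass without WT replicate 1, 2 or 4 or without 175Q replicate 1, 3 or 4 (adjusted p 0.0755 to 0.138). Without 175Q replicate 2, 8 of the 16 genes were called lower, and without WT replicate 3, 5 were. With WT replicate 2 and 175Q replicate 2 both left out, 9 were.

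Some developmental transcription factors rose, several of them from near silence. Of 56 such genes 36 had enough reads to be tested, and 12 were called higher and none lower. Genes silent in WT could pass this filter only through 175Q or 175QK772T libraries. The share that rose among those tested is therefore no measure of the list. Pou4f1, a POU factor of sensory and habenular neurons, was at 0.0268, 0.0652, 0.0201 and 0.0119 CPM in WT and at 2.65, 2.81, 2.08 and 3.22 CPM in 175Q. Those WT levels rest on 2, 5, 2 and 1 counts against 255, 219, 185 and 239 in 175Q, a ratio of 92.7 (95% interval 50.2 to 194, counting error only), and the fitted log2 fold change was 6.42 ± 0.32 (adjusted p = 1.72e-07). It was 7.02 without WT replicate 2. Skor1, a corepressor of dorsal spinal cord neurons outside this list, was at 0.134, 0.0913, 0.141 and 0.155 CPM in WT and at 5.16, 5.14, 4.24 and 5.56 CPM in 175Q. Counts summed to 44 in WT and 1688 in 175Q, a ratio of 39.6 (29.4 to 54.7), and the log2 fold change was 5.25 ± 0.22 (adjusted p = 7.15e-08).

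Pax2, a factor of the midbrain-hindbrain boundary and kidney, was at 0.281, 0.183, 0.301 and 0.452 CPM in WT and at 7.05, 8.38, 6.89 and 11.1 CPM in 175Q. It rose in every 175Q library, by 4.77 on the log2 scale (adjusted p = 7.57e-07). Twist1, a bHLH factor of mesoderm and neural crest, was at 0.857, 1.07, 1.13 and 0.784 CPM in WT and at 6.91, 8.21, 5.30 and 8.63 CPM in 175Q. Its rise was 2.91 (adjusted p = 7.57e-07). Tal1, a bHLH factor of blood formation and of midbrain GABAergic neurons, was at 1.69, 1.59, 1.65 and 1.94 CPM in WT and at 10.5, 7.52, 7.20 and 8.38 CPM in 175Q. It rose by 2.28 (adjusted p = 7.57e-07), the groups not overlapping.
The Wilms tumour gene Wt1 went from 13 counts over the 4 WT libraries to 501 over the 4 175Q libraries (ratio 39.8, 23.1 to 75.2), the limb and heart factor Tbx5 from 7 to 207 (30.5, 14.6 to 76.9) and En1, of the midbrain-hindbrain boundary, from 9 to 251 (28.8, 14.9 to 63.7). The fitted log2 fold change of Wt1 was 5.22, and 6.08 without WT replicate 1; for En1 it was 4.74, and 5.54 without WT replicate 2. In 175Q replicate 4, Wt1 was at 48 counts against 122 to 188 in the other 3. The other called factors had smaller rises: Tbx2, Tbx3, Tbx15, Pax5 and En2, at WT means of 1.77, 1.98, 0.941, 0.283 and 0.867 CPM, rose by 0.92, 0.70, 1.17, 0.99 and 0.56 on the log2 scale (adjusted p = 0.000649, 0.000693, 7.32e-05, 0.0128 and 0.0203). En2 did not pass without WT replicate 3 or 4 or 175Q replicate 3 (adjusted p = 0.0623, 0.0658 and 0.0727), nor Pax5 without WT replicate 2 and 175Q replicate 2 (0.0689). Of the 36 tested, 24 were not called: Pax6, Gata2, Otx1 and Foxc1 had log2 fold changes of 0.12, 0.11, -0.08 and 0.35 and did not pass. Hand1, Hand2 and Foxd3 had no count in any of the 8 libraries.

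Hox genes, which pattern the hindbrain and spinal cord, rose as well. The 24 listed Hox genes summed to 9, 22, 22 and 40 counts in the WT libraries and to 871, 656, 616 and 543 counts in the 175Q libraries. No library of one group came near the other. Of the 24, 13 had no count in any WT library, 21 had more counts in 175Q than in WT, and 14 were tested, of which 13 were called higher and none lower. The called genes had too few counts in WT to pass the low-count filter there, so 13 of 14 is no measure of the list. Against a floor of 3 counts over the WT group, Hoxc4 was at least 84.6-fold higher, Hoxa2 at least 84-fold, Hoxb2 at least 82.2-fold and Hoxc6 at least 75.4-fold. Hoxd8 went from 4 to 436 counts (ratio 113, 43.6 to 415). DESeq2 called 7 of the 14 higher and gave the other 7 no adjusted p. Hoxd1, the tested gene that was not called, had 38 counts in WT and 22 in 175Q. In the annotation the span of Hoxc5 overlaps that of Hoxc6, the span of Hoxa3 those of Hoxa4 and Hoxa5, and the span of Hoxd3 that of Hoxd4. Read pairs over several genes were not counted, so the levels of these genes are uncertain. Even after the rise, the summed level of the 14 tested genes was 6.61 to 8.70 CPM.

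**Figure D4:**
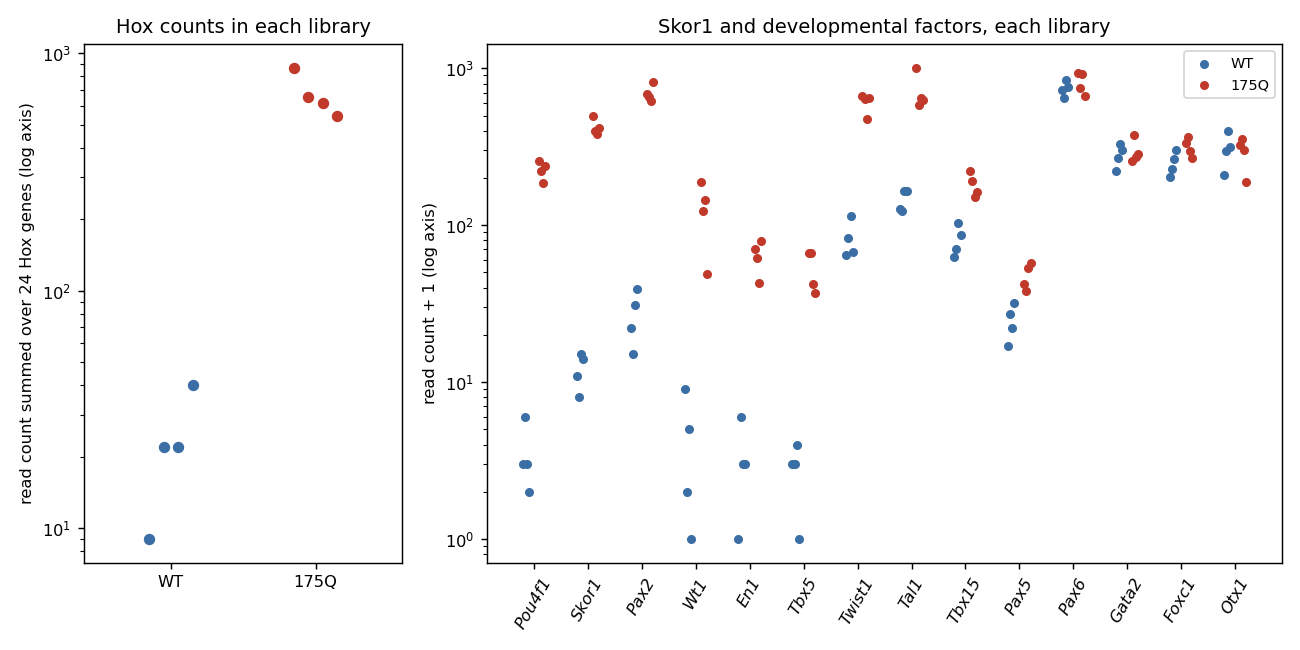
The left panel gives the read count summed over 24 Hox genes in each library (log axis), 9 to 40 in WT and 543 to 871 in 175Q. The right panel gives the read count + 1 (log axis) of Skor1 and 13 listed transcription factors in each WT (blue) and 175Q (red) library; Pou4f1, Skor1, Pax2, Wt1, En1 and Tbx5 separate widely, whereas Pax6, Gata2, Foxc1 and Otx1 do not.

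Other rises among the 15 largest had diverse annotations. Onecut2, a homeobox factor, was the most abundant of them, at 16.1, 20.2, 17.4 and 15.2 CPM in WT and at 46.8, 41.1, 36.6 and 51.5 CPM in 175Q. It rose by 1.35 on the log2 scale (adjusted p = 1.63e-05). Otogl, an otogelin relative known from the inner ear, was at 2.2, 2.31, 1.88 and 2.02 CPM in WT and at 7.69, 6.04, 6.72 and 8.13 CPM in 175Q. Its rise was 1.77 (adjusted p = 8.06e-07). The noncoding RNA Igf2os was at 0.469, 0.639, 0.241 and 0.428 CPM in WT and at 4.66, 5.29, 4.31 and 6.96 CPM in 175Q. It rose by 3.59 (adjusted p = 3.34e-06), whereas Igf2 on the opposite strand did not pass, at -0.03 (adjusted p = 0.984), and counting was by strand at this age. Eif3j2 also rose, by 1.35 (adjusted p = 0.00621), but it is nearly identical to another gene, so its level is uncertain. Among genes above a mean of 30 CPM the rises included Plagl1, an imprinted zinc finger gene, by 0.87, the G protein subunit genes Gng4 and Gng3 by 0.76 and 0.60, and the phosphatase gene Ptpro by 0.69 (adjusted p = 0.00146, 0.000656, 8.57e-07 and 0.000874).

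Of 24 Polycomb subunit genes, 4 were called higher and 2 lower, a share near the 19.6% of all genes, and the median log2 fold change was 0.07. Cbx8, a chromodomain subunit, was at 9.44, 8.06, 10.3 and 9.56 CPM in WT and at 12.7, 16.3, 14 and 11.5 CPM in 175Q. It rose by 0.55 on the log2 scale (adjusted p = 0.0015), while Cbx6 fell by 0.18 ± 0.04 (adjusted p = 0.00482). The catalytic subunit gene Ezh2 was at a mean of 7.10 CPM in WT and 7.05 CPM in 175Q (adjusted p = 0.951), and Eed and Suz12 did not pass either.

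Genes tied to ataxin-1 itself gave small values. Of 18 partners tested, 2 were called higher and 2 lower, with a median of -0.04, a share near the 9.71% higher and 9.9% lower of all genes. Capicua (Cic) had a log2 fold change of -0.15 ± 0.05 (adjusted p = 0.0424), which did not pass without WT replicate 1, 3 or 4 or without 175Q replicate 1 or 4 (adjusted p 0.0881 to 0.117), and Atxn1l was at 0.05 ± 0.04 (adjusted p = 0.394). Of 16 Capicua target genes tested, 6 were called lower and 1 higher, with a median of -0.15, and without WT replicate 1 the number called was 4. Dusp4, a phosphatase of MAP kinases, was at 21.5, 18.3, 20.3 and 19.1 CPM in WT and at 7.95, 10.3, 11.2 and 10.0 CPM in 175Q. It fell by 1.01 ± 0.09 on the log2 scale and the ETS factor Etv1 by 0.51 ± 0.08 (adjusted p = 1.38e-05 and 0.000986). Etv4 and Spry4 did not pass, at -0.25 and 0.03.

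Among glial and vascular lists, calls were found in astrocyte and oligodendrocyte precursor markers. Of 12 astrocyte markers 7 were called lower and none higher, with a median log2 fold change of -0.28. The glutamate transporter gene Slc1a2 was at 3733, 3549, 3416 and 3661 CPM in WT and at 2645, 2590.5, 2786 and 2650.5 CPM in 175Q. Its groups were separate, and it fell by 0.43 ± 0.04 on the log2 scale (adjusted p = 2.04e-05). Gfap, the intermediate filament that rises in reactive astrocytes, was at 446, 402, 390.2 and 400.1 CPM in WT and at 295, 317, 322 and 306 CPM in 175Q. It fell by 0.40 ± 0.06 (adjusted p = 0.000357). No gene of 12 oligodendrocyte, 12 microglia, 12 endothelial or 11 pericyte and fibroblast markers was called, with medians of 0.02, -0.04, 0.02 and -0.26. Myelin basic protein (Mbp) was at a mean of 2794 CPM in WT and 2743 CPM in 175Q, and the microglial receptor gene Cx3cr1 at 52.3 and 50.7 CPM (adjusted p = 0.907 and 0.628). Of these 47 genes 3, all in the pericyte and fibroblast list, had an unadjusted p below 0.05, and DESeq2 called none. Without 175Q replicate 3, 1 oligodendrocyte marker was called lower, and without 175Q replicate 1, 1 pericyte and fibroblast marker. Of 10 oligodendrocyte precursor markers 3 were called lower, beside 9.9% of all genes. They were led by Gpr17, a receptor of maturing cells, at -0.33 ± 0.06 (adjusted p = 0.00302).

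Markers of neighbouring tissue were read beside these values, and beside the 9.9% of all genes called lower and 9.71% called higher. Of 11 thalamus and habenula markers tested 4 were called lower and 1, Pou4f1, higher, and their summed level was 130 to 145 CPM in WT and 81.3 to 120 CPM in 175Q. Slc17a6, the glutamate transporter gene of thalamus and habenula, did not pass at -0.14 ± 0.42 (adjusted p = 0.866). Of 11 cortical layer markers tested 4 were called lower (summed levels 526 to 605 CPM in WT, 363 to 514 CPM in 175Q), and of 11 striatal markers 3 (335 to 367 CPM and 315 to 335 CPM), but 1 without 175Q replicate 4. Their part in the hippocampal results was not tested.

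Chaperone genes were called in both directions and cholesterol synthesis genes in 1 direction. Of 20 chaperone and protein folding genes 4 were called higher and 4 lower, beside 9.71% higher and 9.9% lower of all genes. Hspa8, the constitutive Hsc70, was at 1446, 1362, 1349.6 and 1379 CPM in WT and at 1759, 1704, 1743 and 1756 CPM in 175Q. It rose by 0.33 on the log2 scale and Hsp90aa1 by 0.29 (adjusted p = 0.000105 and 0.000523). The heat-inducible Hspa1b fell by 1.17 ± 0.15 and Hspa1a by 0.73 ± 0.11 (adjusted p = 0.000127 and 0.000697); the split between this near-identical pair is uncertain. Of 16 cholesterol synthesis genes 9 were called lower and none higher, with a median of -0.17. Hmgcs1, an early enzyme of the pathway, fell by 0.35 ± 0.05 and its regulator Srebf2 by 0.28 ± 0.05 (adjusted p = 0.000597 and 0.00287).
Extracellular matrix genes were called lower in 8 of 19 cases and higher in none. The link protein genes Hapln1 and Hapln4 of perineuronal nets fell by 0.85 ± 0.07 and 0.73 ± 0.07 and neurocan (Ncan) by 0.42 ± 0.05 on the log2 scale (adjusted p = 5.48e-06, 2.04e-05 and 0.000115).

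Interferon response genes had a higher summed level in 175Q, and their calls depended on single libraries. All 16 had a log2 fold change above 0, and 3 were called higher, beside 19.6% of all genes called and 9.71% called higher. The summed level of the 16 was 51 to 55.2 CPM in WT and 59.4 to 125 CPM in 175Q, without overlap. Values of 6 of the 16 genes did not overlap between groups, beside 22.6% of all genes. Irf7, a driver of the interferon response, was at 2.57, 1.83, 1.62 and 1.66 CPM in WT and at 3.41, 7.54, 3.81 and 3.65 CPM in 175Q. Its log2 fold change was 1.24 ± 0.34 (adjusted p = 0.0208), with the highest value in 175Q replicate 2, and it did not pass without that library at 1.02, adjusted p = 0.0664 or without WT replicate 3 at 1.06, adjusted p = 0.0722. Without 175Q replicate 2 or WT replicate 1, 1 of the 16 was called, and without WT replicate 3, or with both replicates 2 left out, none was.

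Genes around the knock-in site were counted apart, since alleles near Atxn1 come with the modified chromosome. Within 10 Mb of Atxn1, 43 of 189 genes tested were called (22.8%), 16 higher and 27 lower, against 19.6% of all genes. Within 5 Mb the share was 17.6% and within 20 Mb 19%. Dsp and Rgs14, described above, are among the 43, as are Cap2, an actin regulator that fell by 0.56 ± 0.06, and Nrn1, a neurite protein that fell by 0.49 ± 0.06 on the log2 scale (adjusted p = 5.96e-05 and 0.000107). Whether linked alleles take part in these 43 values was not tested.

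The same comparison in hippocampus at 26 weeks gave 8073 called genes of 19809 (40.8%), 4030 higher (20.3%) and 4043 lower (20.4%). Those mice were other animals, prepared and sequenced as a separate batch at lower depth, and their sample descriptions give the line another repeat number than the 175Q of the genotype field, so age, batch and repeat length cannot be told apart. Of the 4132 genes called at 10 weeks, 3189 were called in the same direction at 26 weeks (77.2% of the 10-week calls and 39.5% of the 26-week calls), and 22 in the opposite one. The difference between the effects was tested as an interaction and called for 2163 of 21806 genes (9.92%), with the effect more positive at 26 weeks for 3.54% of genes and more negative for 6.38%. That split depended on the scaling and on single libraries: with RLE scaling 1003 genes were more positive and 1143 more negative, with DESeq2 1278 and 1464, and without 175Q replicate 2 of 26 weeks 1121 and 972. For 2148 of these both effects were fitted, and for 2004 of them the 26-week effect was the larger in size.

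Field markers were lower in the 26-week set too. All 16 dentate granule cell markers were called lower there (background 20.4%), as were 13 of 14 CA1, 5 CA2 and 8 CA3 markers, with medians of -1.07, -0.82, -0.74 and -0.97. The difference between ages itself was called for 6 of 16 dentate, 6 of 14 CA1, 3 of 10 CA2 and 3 of 12 CA3 markers. C1ql2 had a log2 fold change of -4.15 at 26 weeks against -1.92 at 10 weeks, a difference of -2.24 (edgeR interaction, adjusted p = 1.17e-05). Lct moved from -1.88 to -3.88 and Dsp from -1.31 to -3.11, with differences of -2.03 and -1.78 (adjusted p = 5.91e-05 and 0.000524). Plk5 did not share this: it was at -2.96 and -2.34, a difference of 0.61 that did not pass (adjusted p = 0.0784). For Wfs1 the effects were -1.61 and -1.81 (adjusted p of the difference = 0.469).
Among rising genes, Tal1 went from 2.28 to 3.53 and Onecut2 from 1.35 to 2.32, with differences of 1.23 and 0.96 (adjusted p = 0.000131 and 0.000415). Hoxa7 had the largest positive difference of the genes named by rule, 3.40 (adjusted p = 0.000397). Pou4f1 went the other way, from 6.42 to 4.36. Its difference of -2.05 passed (adjusted p = 0.0191) but not without WT replicate 3 of 10 weeks (-1.88, adjusted p = 0.0599), WT replicate 4 of 10 weeks (-1.79, adjusted p = 0.0563) or WT replicate 2 of 26 weeks (-1.55, adjusted p = 0.0597).

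**Figure D5:**
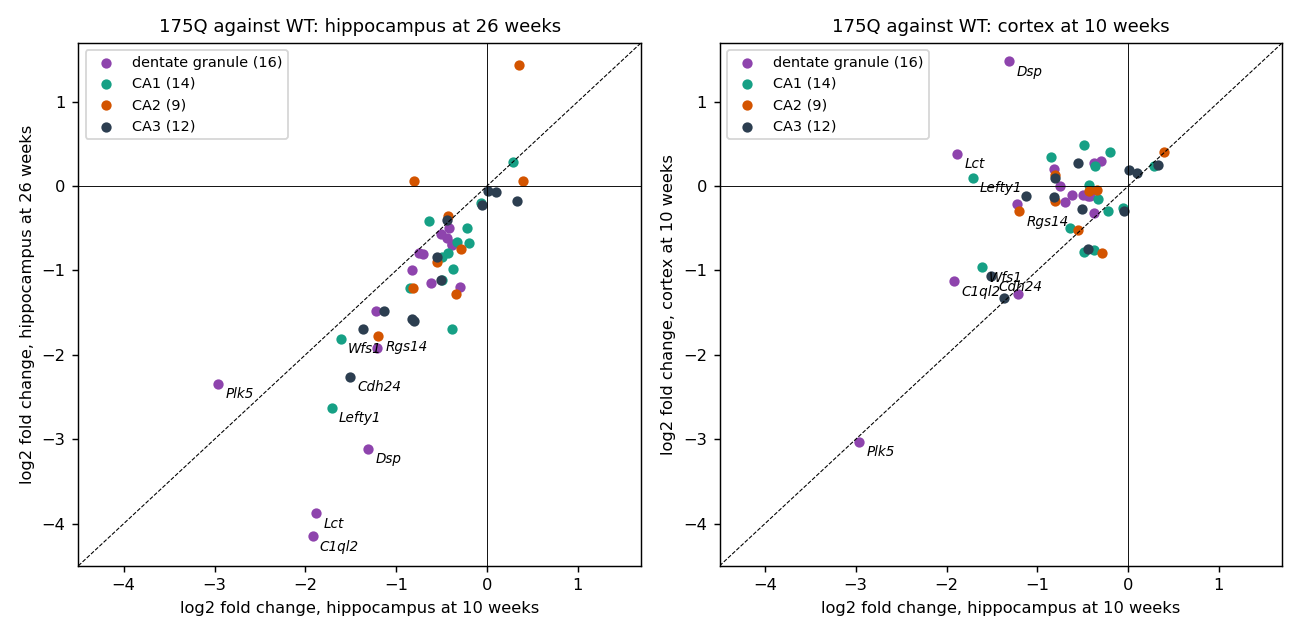
Log2 fold changes of 175Q against WT for dentate granule, CA1, CA2 and CA3 markers in hippocampus at 10 weeks (x axis) and in hippocampus at 26 weeks (left) or cortex at 10 weeks (right) on the y axis; the dashed line marks equal values. C1ql2, Lct and Dsp lie far below the line at 26 weeks, and in cortex Dsp and Lct lie above 0.

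Cortex of the same mice at 10 weeks gave 7939 called genes of 20748 (38.3%), 3849 higher (18.6%) and 4090 lower (19.7%). Of the hippocampal calls 2719 were called in the same direction in cortex (65.8% of the hippocampal and 34.2% of the cortical calls) and 133 in the opposite one. The regional difference, fitted with the mouse as a block, was called for 2105 of 21348 genes (9.86%), with the effect more positive in hippocampus for 1185 (5.55%) and more negative for 920 (4.31%). This excess was not seen with RLE scaling (1078 and 1078), with DESeq2 (1169 and 1217) or with no low-count filter (1317 and 1381). Of the 2081 with both effects 535 were larger in size in hippocampus and 1546 in cortex. Dentate granule cell markers differed between regions in 11 of 16 cases. Dsp had a log2 fold change of -1.31 in hippocampus and 1.48 in cortex, where WT libraries held 0.0711 to 0.422 CPM, and the difference was -2.73 (edgeR interaction, adjusted p = 0.000326). Lct differed by -2.27, Rfx3 by -1.02 and Stxbp6 by -1.01 (adjusted p = 9.91e-05, 1.81e-05 and 1.56e-05). Plk5 fell in both regions, by 2.96 ± 0.13 in hippocampus and by 3.03 ± 0.11 in cortex, with a difference of 0.08 (adjusted p = 0.644).
The regional difference was called for 7 of 14 CA1, 4 of 10 CA2 and 4 of 12 CA3 markers, beside 9.86% of all genes. Gpr161 was at -0.85 in hippocampus and 0.35 in cortex, and Rgs14 at -1.20 and -0.30 (adjusted p of the difference = 5.65e-05 and 0.000101). The CA3 marker Bok fell in both regions, at -1.37 and -1.33, with a difference of -0.03 (edgeR interaction, adjusted p = 0.914). Gabra5 and Gria1 fell in hippocampus and had cortical values of 0.00 and 0.17 (adjusted p of the difference = 2.6e-05 and 7.05e-05). Skor1 rose by 5.25 in hippocampus and 0.86 in cortex (difference 4.40, adjusted p = 9.78e-06), while Pou4f1 and Pax2 rose in cortex too, by 6.43 and 4.76. Their regional differences, -0.13 ± 0.67 and -0.02 ± 0.30, did not pass (adjusted p = 0.968 and 0.984). Onecut2 and Tal1 rose more in cortex, at 2.69 and 3.19 (adjusted p of the difference = 1.92e-05 and 0.00151).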

How the data were processed

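Poly-A RNA of each mouse's hippocampus was sequenced as 150 nt read pairs. Per the submitters' processing notes, the authors used bcl2fastq 2.20.0, Trimmomatic 0.33, HISAT2 2.1.0 and featureCounts of Subread 1.6.2 with GRCm38. The deposited values are raw counts per gene for 55573 genes (55394 with a symbol). Per the file headers, the 10-week counts took read pairs on the reverse strand with mapping quality of at least 10, did not count pairs that mapped to several places or spanned several genes, and used Ensembl annotation 97. For the 26-week table, strand and quality settings are not given in the sources used here.

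From the counts, edgeR 4.0.16 (limma 3.58.1, R 4.3.3; filterByExpr, TMM) fitted genotype and sex over 12 libraries with the quasi-likelihood test and Benjamini-Hochberg adjustment over all genes tested. The 26-week and cortex sets were fitted in the same way. The difference between regions used the mouse as a block, and the difference between ages was an interaction term. DESeq2 1.42.0 was an alternative, beside RLE scaling, a fit to only the 8 WT and 175Q libraries, leaving out the sex term or the low-count filter, a block for the replicate number, and each library left out in turn. Leaving out WT replicate 2 and 175Q replicate 2 together was added after seeing the data. The test was also run on counts simulated from the fitted means, depths and dispersions, and those results are not given here. Each standard error was the size of the log2 fold change divided by the square root of the F statistic. It therefore uses the spread over all libraries of the fit. RPKM used the deposited gene lengths. Ratios of summed counts carry exact intervals at 95%, and a group at 0 was set to a floor of 3 counts.

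Named genes were Atxn1, the 15 largest rises and 15 largest falls without overlap among called genes at a mean of at least 1 CPM, the 8 largest of each direction at 30 CPM or more, the called members of gene lists with the smallest adjusted p, up to 5 a list, and the 6 largest differences of each direction between ages and regions. A list member could be given whether called or not. A few of the named genes are not reported here. The members and lists were chosen with earlier results of these data known. Promoter sequences are from RefSeq on GRCm38.p6. A window was matched for 64.6% of genes tested, so promoter content was not compared between groups of genes. No pair of libraries agreed within sampling noise.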

Additional observations from a re-analysis of the deposited data

Results flagged for a closer look

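Among 324 groups of 4 libraries examined, 22 held 1 library far from the other 3, where chance alone marks about 1 in 20. Transthyretin (Ttr) was at 3429 CPM in WT replicate 2 and at 3058 CPM in 175Q replicate 2. Immediate early gene Arc was at 138 CPM in WT replicate 1 and at 108 CPM in 175Q replicate 2, and Bdnf at 41.5 CPM in WT replicate 3. In 175Q replicate 2, Irf7 (7.54 CPM), Igf2 (3.19 CPM) and Prkcd (12.7 CPM) were high and Atxn1l (57.3 CPM) was low. In 175Q replicate 4, Camk2a (2842 CPM), Lct (17.8 CPM) and Scg2 (209 CPM) were high among 175Q libraries. WT replicate 3 was high for Cacna1h (187 CPM), Etv1 (138 CPM) and Itpka (223 CPM). WT replicate 4 was high for Pnck (79.0 CPM) had Hoxa4 at 0.0238 CPM (2 reads) and Hoxa5 at 0.0119 CPM (1 read) where the other WT libraries had none, and had no Tbx5 read (0 CPM). WT replicate 1 was low for Ddn (2174 CPM) and high for Spry4 (16.5 CPM) and Hoxc5 (0.0134 CPM, on 1 read).

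Between ages, the 175Q effect differed by the edgeR interaction test, given here as 26 weeks minus 10 weeks on the log2 scale. The effect was more positive at 26 weeks for Hoxa7, by 3.40 ± 0.55 (adjusted p = 0.000397), the bHLH factor Sim2 by 3.35 ± 0.38 (1.26e-05), the homeobox factor En2 by 2.17 ± 0.24 (9.77e-06), the glycine transporter gene Slc6a5 by 2.79 ± 0.68 (0.0112) and Baiap3 by 1.43 ± 0.36 (0.0121). The effect was more negative or less positive at 26 weeks for Eif3j2 (-2.26 ± 0.39, adjusted p = 0.000776), C1ql2 (-2.24 ± 0.25, 1.17e-05), Tnfrsf25 (-2.10 ± 0.34, 0.000443), Pou4f1 (-2.05 ± 0.55, 0.0191) and Lct (-2.03 ± 0.27, 5.91e-05). CT010467.1 differed by -3.53 ± 1.10 (adjusted p = 0.0427) but did not pass in 11 of the 16 fits that left out 1 library, and was at -2.52 without WT replicate 4 of 26 weeks. Pou4f1 did not pass without WT replicate 3 or 4 of 10 weeks or WT replicate 2 of 26 weeks (adjusted p = 0.0599, 0.0563 and 0.0597).

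Between regions of the same mice, given as hippocampus minus cortex, the effect was more positive in hippocampus for Skor1 (4.40 ± 0.32, adjusted p = 9.78e-06) and Igf2os (3.06 ± 0.48, 0.00146), which rose in hippocampus. For Hfe2 (3.53 ± 0.54, 0.00122), Adam33 (3.27 ± 0.38, 0.000189), the troponin gene Tnnc1 (2.98 ± 0.22, 9.78e-06) and the tetraspanin gene Tspan11 (2.97 ± 0.20, 7.06e-06) the hippocampal log2 fold changes of 0.66, -0.71, -0.18 and 0.06 were not called, and those in cortex were -2.93, -3.98, -3.17 and -2.94. The difference was negative for Dsp (-2.73 ± 0.35, 0.000326), Lct (-2.27 ± 0.24, 9.91e-05), the heparan sulphate enzyme gene Ndst4 (-2.08 ± 0.17, 1.91e-05), Vwa3b (-2.01 ± 0.24, 0.000213), Sec14l3 (-1.95 ± 0.27, 0.000582) and Cyp26b1, which breaks down retinoic acid (-1.90 ± 0.16, 2.08e-05). Ndst4, Sec14l3 and Cyp26b1 fell in hippocampus by 0.57, 0.82 and 1.41 and had cortical values of 1.52, 1.18 and 0.46, and Vwa3b fell in hippocampus and was at 0.53 in cortex.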

How the results depend on the processing

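The number of genes called in hippocampus at 10 weeks ran from 3164 to 4020 when each library was left out in turn, with 4132 as reported, 4615 with DESeq2, 4041 with RLE scaling, 4646 with no low-count filter, 4158 without the sex term, 3537 with only the WT and 175Q libraries and 3349 without WT replicate 2 and 175Q replicate 2. With the replicate number as a block it was 3149. That block gave 8210 at 26 weeks and 7424 in cortex, and the regional difference without the mouse as a block was called for 1749 genes. The labels do not tie replicate numbers of WT and 175Q to a shared litter or day, and deviations of same-numbered libraries correlated at 0.133, 0.242, -0.032 and 0.131. WT replicate 3 correlated best with 175Q replicate 1 (0.104) and WT replicate 4 with 175Q replicate 3 (0.207), so the numbers were not read as pairs.

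Leaving out 1 library at a time gave 7183 to 7948 calls at 26 weeks, 7039 to 7394 in cortex, 1550 to 2414 for the age difference, 1520 to 2220 for the regional difference and 2414 to 3068 genes shared between ages. It gave 219 to 246 called members over all lists and 187 to 193 of the 201 named genes still called. Atxn1 ran from 0.24 to 0.31 on the log2 scale. No called gene named in the text changed sign under these settings. The excess of more negative age differences turned without 175Q replicate 2 of 26 weeks (1121 more positive, 972 more negative), and the excess of more positive regional differences turned with DESeq2 (1169 and 1217) and with no low-count filter (1317 and 1381).

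With no low-count filter more list members were called: 11 of 12 choroid plexus, 11 of 16 interferon response, 12 astrocyte, 14 extracellular matrix, 8 immediate early, 8 cortical layer, 7 striatal, 5 mossy cell and subiculum, 4 immature neuron, 3 pericyte and fibroblast and 1 oligodendrocyte marker. The cause was not tested. The block gave 3 calls in the sodium and HCN channel list and 1 in the pericyte and fibroblast list. Arc, Nts and Cic were not called with the block (adjusted p = 0.0619, 0.0696 and 0.102). Of 6 ependymal markers tested 2 were called lower, 1 with the block and 0 without the sex term. Intervals and floors cover counting error only, and a gene with few counts in WT has a fold change that depends on single reads.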
